A study of Mus musculus with 6 samples.

Results

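The promoter region of a mouse gene was followed from its start site outward, and the peaks of open chromatin whose deposited class is promoter but not within 1 kb of the start site are called outer promoter peaks here. There were 320 of them among 22412 peaks (1.43%), at 318 genes. All 320 carry the class of 1 to 2 kb, and none of the peaks analysed here carried the class of 2 to 3 kb. Their centres lay 1001 to 1997 bases upstream of the start site, with a median of 1381.5 bases. A further 3088 peaks had the class within 1 kb and are called inner promoter peaks.

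The peaks come from ATAC-seq, in which a transposase cuts accessible DNA, on nuclei of mouse liver. The 6 libraries comprise 3 controls that received an adenovirus for EGFP, a green fluorescent protein, and 3 that received an adenovirus for Dyrk1b, a dual-specificity kinase, and both groups thus carried a virus. The title of the series relates hepatic Dyrk1b to glucose homeostasis through Wbp2, and the comparison asks how overexpression alters open chromatin. The labels used here name no strain, age, sex, virus dose, transgene promoter or time after infection. Separate animals are not stated for the replicates either, so p-values measure only the spread between samples that may be technical repeats.

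A promoter has a core at the start site, where RNA polymerase is loaded, and a flank further upstream where sequence-specific factors can bind. The core is open in most active genes of a tissue. Open sites in the flank are fewer, and they more often reflect factors that act in particular cell types or in response to hormones, nutrients or stress.

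Of the 320 outer peaks, 66 (20.6%) belonged to a gene that also had an inner peak, 23 to a gene with a peak in its 5' UTR, and 233 to a gene with neither. For 154 of them the outer peak was the only peak of the gene in the table. Neither Dyrk1b, with 2 peaks, nor Wbp2, with 1 peak, had an outer promoter peak. The promoters of 2 genes, Snupn and Tmem98, are shown because their outer and inner peaks differed in opposite ways, as described further on. The inner peak of Snupn ran from 291 bases upstream to 269 bases downstream of its deposited start, and that of Tmem98 from 325 upstream to 230 downstream. Both sequences are the 250 bases before the RefSeq start of the gene in GRCm38.p6, on the strand of the gene, which is the plus strand for both, at chr9:56950658-56950907 and chr11:80810116-80810365. They stop short of the outer peaks, whose own sequence was not analysed here.
Snupn: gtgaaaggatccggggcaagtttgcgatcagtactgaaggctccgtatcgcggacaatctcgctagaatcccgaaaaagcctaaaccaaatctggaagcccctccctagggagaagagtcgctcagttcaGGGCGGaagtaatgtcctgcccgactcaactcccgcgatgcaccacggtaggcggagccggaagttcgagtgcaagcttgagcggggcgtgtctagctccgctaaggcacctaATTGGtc
Tmem98: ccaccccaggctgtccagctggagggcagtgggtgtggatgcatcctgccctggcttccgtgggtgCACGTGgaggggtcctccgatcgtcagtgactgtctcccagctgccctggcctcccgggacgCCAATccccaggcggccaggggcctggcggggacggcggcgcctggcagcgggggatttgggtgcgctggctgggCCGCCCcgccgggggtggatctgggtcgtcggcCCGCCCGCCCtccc
Capitals mark every match on either strand to the CCAAT box (CCAAT), the GC box (GGGCGG), the TATA box (searched for as TATAAA) or the E-box (searched for as CACGTG). Snupn held 1 GC box and 1 CCAAT box, the latter on the reverse strand with its first printed base 7 bases before the start. Tmem98 held 3 GC boxes on the reverse strand, 2 of which overlap, 1 CCAAT box and 1 E-box, and neither promoter held the TATA box. Among the same 250 bases of 27025 RefSeq genes, 34.5% held the CCAAT box, 32.9% the GC box, 13.0% the TATA box and 6.05% the E-box. Snupn had 19 and Tmem98 20 CpG dinucleotides, against a median of 6. A match describes the letters only. A CpG or motif count over all outer promoter genes was void, since 184 of their 253 symbols (72.7%) were matched in the sequence table.

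Outer peaks were narrower than inner ones, with a median width of 411.5 against 560 bases, and held fewer reads, with a median sum over the 6 libraries of 183 against 259. The outer peaks of a library held 9387 to 15881 reads in all, and the median outer peak held 24 to 42.5 reads per library, most in Dyrk1b 3. Levels are given in CPM, the reads of a peak relative to all reads of that library in the table, after scaling by the trimmed mean of M values (TMM). Hepatocyte marker genes fixed for the check of the tissue had a peak in 6 of 12 cases (among them Alb and Apob), and none of the 55 marker genes of liver cell types had an outer promoter peak. Over all their peaks the hepatocyte markers summed to 343 to 487 CPM in controls and 340 to 369 CPM in Dyrk1b libraries. Of 43 markers of endothelial, macrophage, stellate, bile duct and lymphoid cells, 12 had a peak, and these summed to 515 to 596 CPM against 575 to 636 CPM. The change was positive in 1 of 8 tested hepatocyte marker peaks and in 11 of 15 of the other cells, against 50.5% of all tested peaks. By cell type the groups did not overlap only for bile duct markers, with 1 peak (18.8 to 38.7 against 43.8 to 60.6 CPM). No marker peak was called. The part of cell composition in the values below was not tested, and in whole tissue fewer cells of a type and less open chromatin per cell cannot be told apart.

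At the level of the whole class, the share of reads in outer promoter peaks differed between the groups by less than the spread between replicates. They took 1.31%, 1.23% and 1.23% of the reads in peaks in controls 1, 2 and 3 and 1.27%, 1.29% and 1.25% in Dyrk1b 1, 2 and 3, with means of 1.26% ± 0.0433 and 1.27% ± 0.0184 (SD, n = 3 per group). The 2 groups overlapped (p = 0.6, two-sided exact permutation test, which cannot go below 0.1 with 3 against 3). Inner promoter peaks took 17.4%, 16.9% and 17.4% in controls and 15.5%, 16.9% and 16.3% in Dyrk1b libraries (p = 0.2, same exact test). Set against each other, there were 7.49, 7.29 and 7.06 outer reads per 100 inner reads in controls and 8.22, 7.62 and 7.70 in Dyrk1b libraries. All 3 Dyrk1b libraries lay above all 3 controls (7.85 ± 0.322 against 7.28 ± 0.217, SD, n = 3 per group), at the smallest p that the exact permutation test allows (p = 0.1).

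Per unit of length the gap between outer and inner promoter peaks was small in every library. The median outer peak stood below the median inner peak in controls, by -0.14, -0.13 and -0.26 on the log2 scale of CPM per kb with a pseudocount of 1, and stood within 0.06 of it in Dyrk1b libraries (0.06, -0.01 and -0.02). Over the 6 libraries the mean difference was -0.08 ± 0.115 (SD), which did not pass an exact sign-flip permutation test (two-sided p = 0.156). Between the groups the outer minus inner difference was 0.19 higher in Dyrk1b libraries and did not overlap (p = 0.1, the smallest that the exact permutation test allows), a comparison added after the values were seen. In controls the median level was 87.8 to 91.2 CPM per kb within 250 bases of the start and 69.7 to 75.3 CPM per kb between 1500 and 1750 bases. In Dyrk1b libraries the same bands stood at 81.6 to 85.9 and 77.2 to 81.7 CPM per kb. Between 1000 and 1500 bases the values were 76.4 to 83.3 against 79.2 to 92.9 CPM per kb, and the groups overlapped, and between 1750 and 2000 bases they were 79.9 to 87.2 against 78.4 to 82.7 CPM per kb. The profile by distance is thus not even within the outer zone.

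**Figure D1:**
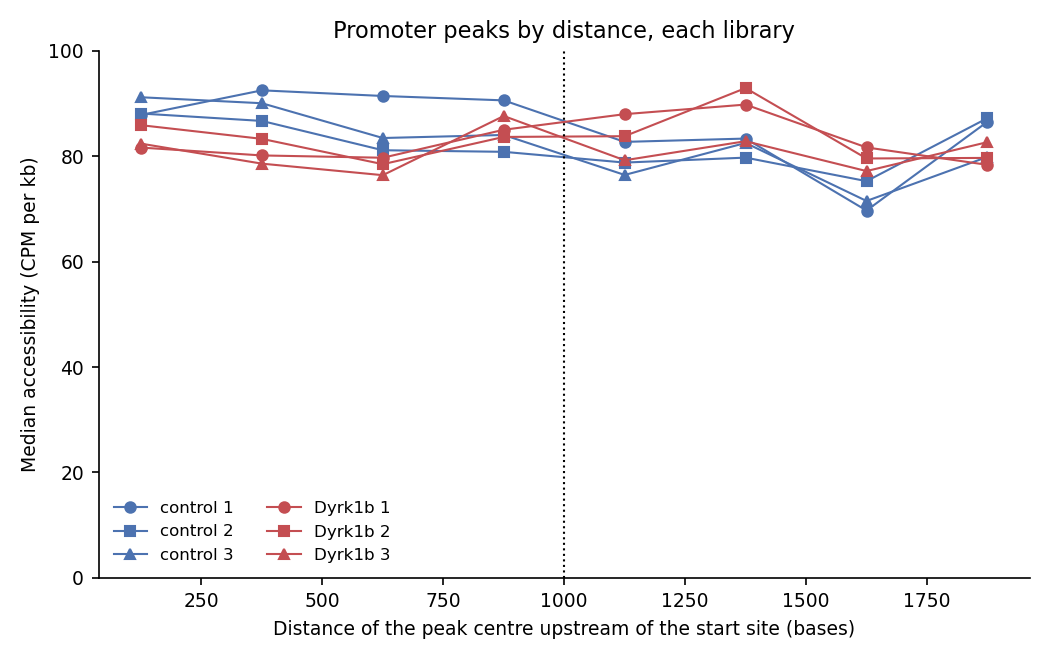
Median accessibility (CPM per kb) of promoter peaks by distance of their centre upstream of the start site, in bands of 250 bases, with 1 line for each of the 6 libraries and a dotted line at the border between inner and outer peaks. Controls stood at 69.7 to 75.3 CPM per kb in the band from 1500 to 1750 bases, below all 3 Dyrk1b libraries there, and above them in the first 250 bases.

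The highest outer peaks per unit of length were 1 of the predicted gene Gm10718 (278 CPM per kb) and those of Ier2, an immediate early gene, at 155, Cdc42bpg, a kinase that acts on the cytoskeleton, at 148, Midn, a ubiquitin-independent degradation factor, at 148, and Mtfp1, a mitochondrial fission protein, at 147 CPM per kb. A peak of a gene without a symbol on chromosome 13 had 176 CPM per kb. The median was 80.9 CPM per kb, and the 87 peaks of genes with an inner or 5' UTR peak had a median of 87.6 against 78.8 CPM per kb for the 233 others. At the near edge of the class, the peak of Osbpl5 lay 1001 bases upstream (16.9 ± 3.92 CPM in controls, 27.6 ± 5.31 with Dyrk1b, SD, n = 3 per group), and just outside it the peak of Hsp90ab1 lay 999 bases upstream (91.3 ± 11.2 and 107 ± 5.85 CPM). At the far edge the peak of Guca1b, 1997 bases upstream, had 29.8 ± 15.4 and 27.8 ± 3.15 CPM.

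No outer promoter peak passed the test of Dyrk1b against control. Of the 320 peaks 310 had enough reads to be tested, and edgeR's quasi-likelihood test called 0 of them at an adjusted p under 0.05 over all 22051 tested peaks, where 7 peaks (0.0317%) were called, 2 higher (0.00907%) and 5 lower (0.0227%). DESeq2 called 1 outer peak, that of Junb, of 19 in all (0.0862%). It gave no adjusted p for 260 of the 310, those of Plin2 and Msln among them, so these could not be called. A limma fit after loess normalisation called 0 outer peaks of 1 in all (0.00453%), and no outer peak reached an FDR under 0.05 in the authors' deposited table. The count at an unadjusted p under 0.05 was 55 outer peaks (17.7%, against 14.2% of all tested peaks), 23 higher and 32 lower, where 6.44% and 7.72% of all tested peaks were higher and lower. With values scaled to the library totals behind the deposited RPKM values there were 27 (8.71%, against 8.69% of all tested peaks), of which 24 were higher and 3 lower, where 7.56% and 1.13% of all were higher and lower. The share of lower peaks among them thus went from 58.2% to 11.1%, and the outer peaks stood at the background. That scaling moved the median log2 change of all tested peaks from 0.005 to 0.17. At a p under 0.05 in the authors' deposited table, 28 of the 320 outer peaks were higher and 5 lower, and the same counts over all peaks were not made. The deposited log2 ratio of mean RPKM had a median of 0.24 over outer peaks and 0.17 over all peaks.

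The middle of the distribution lay near 0. The median log2 change of the 310 peaks was 0.06, with quartiles at -0.30 and 0.38 and extremes at -2.26 (Serpine2) and 1.61 (Snupn). The same median was 0.005 over all tested peaks, -0.11 over inner promoter peaks, -0.05 over 5' UTR peaks and 0.05 over intron peaks. There were 166 outer peaks with a positive and 144 with a negative change (53.5% positive, against 50.5% of all tested peaks). A fold change over 2 was reached by 16 outer peaks, 10 higher and 6 lower, against 4.54% of all tested peaks. The groups did not overlap at 70 of the 310 peaks (22.6%, against 19.5% of all), 35 in each direction, where 9.53% of all tested peaks were higher and 9.97% lower without overlap. Without Dyrk1b 2 the median was 0.0047, which was the library that moved it most.

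Weakly open outer peaks were more often higher with Dyrk1b and strongly open ones more often lower, in nearly the same shares as all tested peaks of the same level. When the outer peaks were split into 3 bands of equal size by mean level, the lowest band, under 28.4 CPM, had 70 of 103 positive (68.0%, against 66.7% of all tested peaks in that range) and a median log2 change of 0.40. In the middle band it was 0.08 with 58 of 103 positive (56.3% against 53.1%), and in the highest band, over 41.5 CPM, it was -0.13 with 38 of 104 positive (36.5% against 35.2%). In the lowest band 13 higher (12.6%, against 10.9% of all) and 5 lower peaks (4.85% against 4.73%) had an unadjusted p under 0.05. In the highest band there were 5 higher (4.81% against 2.67%) and 21 lower (20.2% against 11.4%), and these differences in share were not tested. All tested peaks in the same ranges had medians of 0.27, 0.03 and -0.12, and inner peaks had 0.09, -0.03 and -0.14. After loess normalisation, which levels such a trend over all peaks, the 3 medians of the outer peaks were 0.16, 0.11 and -0.02, and scaled to the RPKM totals they were 0.56, 0.25 and 0.04. Depth differed between the libraries, with most reads in Dyrk1b 3, and its part in this pattern was not tested.

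**Figure D2:**
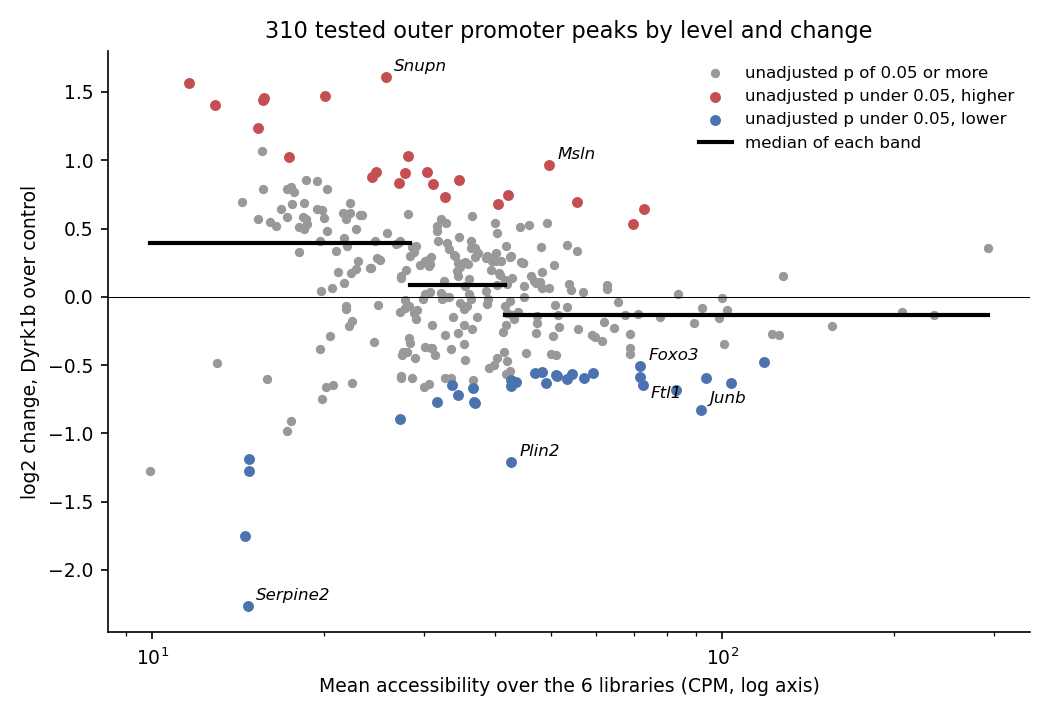
The log2 change of Dyrk1b over control against mean accessibility (CPM, log axis) for the 310 tested outer promoter peaks, coloured where the unadjusted p was under 0.05, with black lines at the median of each of 3 bands of level. The medians are 0.40, 0.08 and -0.13 from the lowest to the highest band.

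By distance the medians were 0.06 for 106 peaks at 1000 to 1250 bases, -0.01 for 79 at 1250 to 1500, 0.14 for 60 at 1500 to 1750 and -0.11 for 65 at 1750 to 2000 bases. Among the 63 tested peaks of genes without a symbol the median was 0.06, with a lowest adjusted p of 0.196. At an unadjusted p under 0.05 there were 4 higher and 7 lower, where 6.44% and 7.72% of all tested peaks were higher and lower. The gene groups below were put together from the known role of each gene, once the genes were known, and hold 141 peaks. They describe the class and are no independent evidence of a direction. The 8 peaks named in each direction for their lowest p were taken only from peaks whose groups do not overlap. Plin2, Junb, Gstp3, Mtfp1, Hivep2, Ftl1, Msln and Pnmt are among them. For these peaks the lack of overlap was fixed by that choice and is no support. Adjusted p-values below are those of edgeR's quasi-likelihood test with Benjamini-Hochberg adjustment over all tested peaks, unless limma is named.

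Genes of lipid storage and lipid transport held the outer peak with the lowest p of all. It belongs to Plin2, perilipin 2, the coat protein of hepatocyte lipid droplets, and lies 1830 bases upstream (chromosome 4, 86589856 to 86590398 as deposited, in a build that the table does not name and whose gene positions differ from GRCm38, as for all peak positions below). It had 59.8, 71.7 and 47.1 CPM in controls 1, 2 and 3 and 27.9, 24.3 and 25.3 CPM in Dyrk1b 1, 2 and 3, from 21 to 59 reads each. Every Dyrk1b library was below every control, and the Dyrk1b libraries were close to each other (25.8 ± 1.85 CPM against 59.5 ± 12.3 CPM, SD, n = 3 per group). The log2 change was -1.21 ± 0.29 (SE) with an adjusted p of 0.0966 by edgeR, and under the alternatives it lay between -1.35 and -1.05 with adjusted p from 0.0904 to 0.430. DESeq2 gave this peak an unadjusted p of 9.78e-05 and no adjusted p. It was the only peak of Plin2 in the table.

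The other 12 tested peaks of this group had no unadjusted p under 0.05. Plin1, the perilipin of fat cells, had 36.3, 44.9 and 57.8 CPM in controls and 67.7, 56.2 and 56.8 with Dyrk1b, so the groups overlapped and the direction was opposite to that of Plin2 (log2 change 0.38 ± 0.26, adjusted p = 0.504 by edgeR). Hilpda, an inhibitor of lipid droplet lipolysis, had a log2 change of 0.30 ± 0.29, and Acot2, a mitochondrial acyl-CoA thioesterase, 0.79 ± 0.44, which was 0.40 after loess normalisation and 0.47 without Dyrk1b 2. Apoa4 and Apoc1, apolipoproteins secreted by the liver and gut, had -0.19 ± 0.25 and -0.41 ± 0.29. Over the 13 peaks 6 were positive and 7 negative with a median of -0.12, which became 0.05 when scaled to the RPKM totals and 0.04 after loess normalisation.

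Immediate early and stress genes were mostly negative, led by Junb. Of 12 tested peaks 9 were negative, with a median log2 change of -0.24 against 0.005 over all tested peaks. At an unadjusted p under 0.05 there were 3, all lower, where 7.72% of all tested peaks were lower at that threshold. The median remained negative when scaled to the RPKM totals (-0.05, with 5 of 12 positive) and after loess normalisation (-0.13). Some members, such as Junb, Gdf15 and Fos, lay in the highest band of level, while Nfe2l1 lay in the middle band. In the highest band 36.5% of outer and 35.2% of all tested peaks were positive, with medians of -0.13 and -0.12. In that band 20.2% of outer and 11.4% of all tested peaks were lower at an unadjusted p under 0.05. Whether the group differed from peaks of its own level was not tested. Junb, a subunit of the AP-1 transcription factor, had 135, 102 and 116 CPM in controls and 65.0, 69.5 and 64.5 CPM with Dyrk1b, at a peak 1423 bases upstream (chromosome 8, 85706430 to 85707110). The lowest control, at 102 CPM, stood above the highest Dyrk1b library (117 ± 16.5 against 66.3 ± 2.73 CPM, SD, n = 3 per group). The log2 change was -0.83 ± 0.22 (SE) with an adjusted p of 0.111 by edgeR. DESeq2 gave 0.0493, and over all alternatives the adjusted p ran from 0.0493 to 0.585.

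Gdf15, a hormone released under cell stress, had 78.6, 68.0 and 61.8 CPM in controls and 21.2, 60.6 and 53.0 with Dyrk1b, which did not overlap but where Dyrk1b 1 stood far below the other two (log2 change -0.60 ± 0.27, adjusted p = 0.306). Bcl3, a nuclear partner of NF-kappaB, had 70.3, 47.4 and 60.5 against 50.4, 25.4 and 39.9 CPM, and the groups overlapped (-0.63 ± 0.28, adjusted p = 0.300). Fos, the partner of Jun proteins in AP-1, had 59.8, 54.7 and 55.1 against 41.1, 70.6 and 60.7 CPM, with Dyrk1b libraries on both sides of the controls (0.04 ± 0.25). Ier2 had a log2 change of -0.11 ± 0.28 and Nr4a3, an orphan nuclear receptor, -0.09 ± 0.22, and both turned positive when scaled to the RPKM totals. Nfe2l1, a transcription factor of proteasome genes, had -0.43 ± 0.34 and Gadd45b, a stress sensor, -0.20 ± 0.22, with adjusted p of 0.564 and 0.705 by edgeR. Without single libraries these ran from -0.78 to -0.20 and from -0.43 to -0.05.

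Both ferritin chains, which together store iron in a cage, had an outer peak, with a negative change that did not pass the test in either. Ftl1, the light chain, had 101, 87.5 and 69.9 CPM in controls and 55.7, 62.8 and 53.7 CPM with Dyrk1b. Fth1, the heavy chain, had 68.0, 47.4 and 68.6 against 33.2, 45.2 and 43.8 CPM. In neither gene did the groups overlap, although for Fth1 control 2 was close to the highest Dyrk1b library. The log2 changes were -0.59 ± 0.23 and -0.57 ± 0.27 (SE), with adjusted p of 0.258 and 0.319 by edgeR, and they were negative under all scalings tried.

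**Figure D3:**
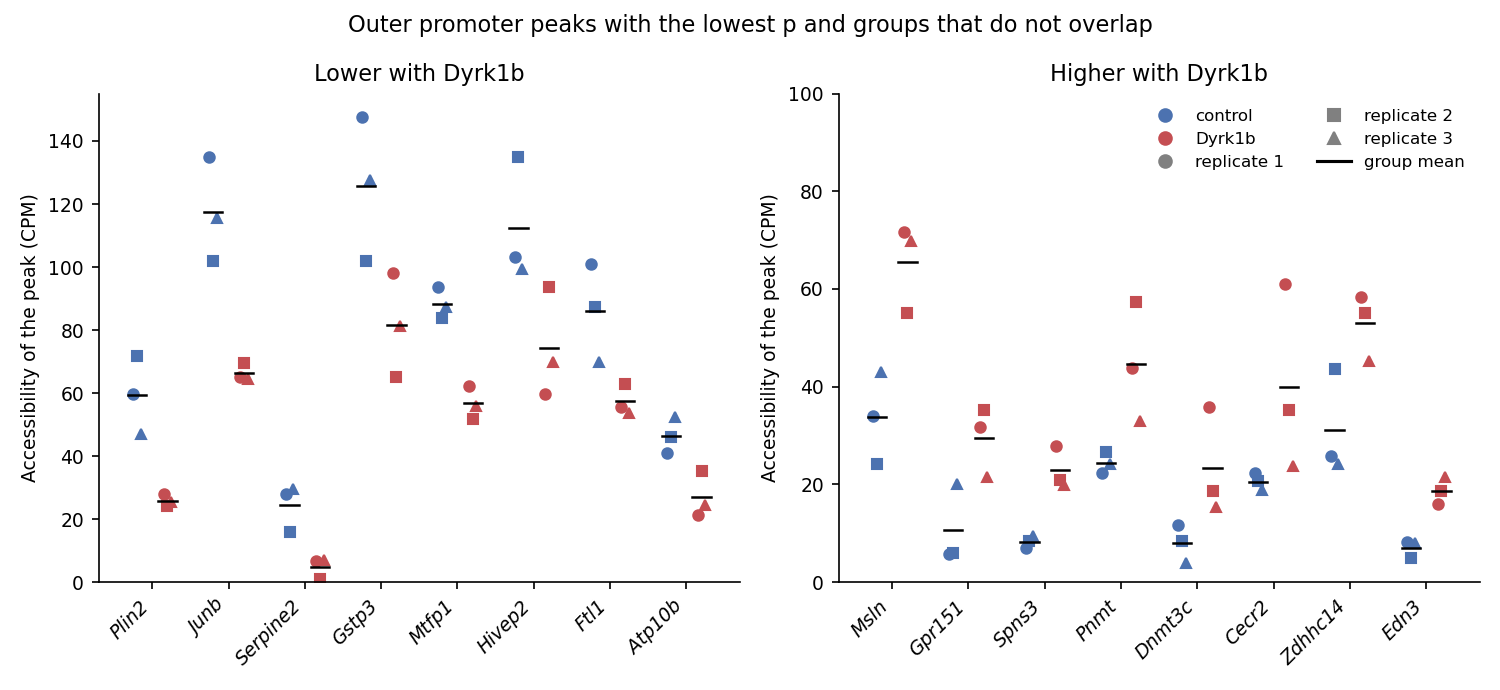
Accessibility (CPM) in each library of the 8 outer promoter peaks in each direction that had the lowest p among peaks whose groups do not overlap, with black lines at the group means of 3 libraries. In the left panel the Dyrk1b libraries of Plin2 stand at 24.3 to 27.9 CPM and in the right panel those of Msln at 55.1 to 71.7 CPM. The peaks of Serpine2, Edn3 and Dnmt3c held enough reads for a test in their higher group only, and that of Gpr151 in its higher group and control 3.

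Enzymes of the hepatocyte had about as many positive as negative peaks. Of 21 tested peaks 11 were positive and 10 negative, with a median of 0.02 that was -0.003 after loess normalisation. Scaled to the RPKM totals, 14 of 21 were positive with a median of 0.18, where the median of all tested peaks was 0.17. Gstp3, a glutathione transferase of detoxification, had 148, 102 and 128 CPM in controls and 98.2, 65.1 and 81.4 CPM with Dyrk1b, with a small gap between the groups (-0.63 ± 0.22, adjusted p = 0.198). Rgn, the calcium-binding protein regucalcin, had 38.7, 43.7 and 22.9 against 19.9, 23.2 and 14.6 CPM and overlapped (-0.89 ± 0.37, adjusted p = 0.276). Pdk2, a kinase that inhibits pyruvate dehydrogenase and so spares glucose, was the 1 enzyme higher at an unadjusted p under 0.05. It had 34.0, 20.7 and 39.0 CPM in controls and 41.1, 52.9 and 54.5 CPM with Dyrk1b, without overlap (0.68 ± 0.30, adjusted p = 0.300). Ldha, lactate dehydrogenase A, had -0.34 ± 0.33 and Ces2a, a carboxylesterase, -0.16 ± 0.22, which became 0.04 after loess normalisation, both by edgeR. The value for Ldha ran from -0.71 without Dyrk1b 1 to -0.03 without Dyrk1b 2.

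Among genes of insulin and growth signalling the outer peak with the lowest p was that of Foxo3, a transcription factor that insulin keeps out of the nucleus through Akt. It had 96.1, 79.0 and 76.6 CPM in controls and 63.7, 58.4 and 56.1 CPM with Dyrk1b, and all Dyrk1b libraries were below all controls (-0.51 ± 0.23, adjusted p = 0.314 by edgeR). Stk11, the kinase LKB1 that activates AMPK, had 136, 108 and 94.1 against 104, 69.5 and 93.7 CPM (-0.35 ± 0.22, and -0.17 after loess normalisation), and the groups overlapped. The peak of Igf1r, the receptor for insulin-like growth factor 1, had 6, 8 and 8 reads in controls and 3, 21 and 27 with Dyrk1b, and was not tested. Of 11 tested peaks 5 were positive and 6 negative, with a median of -0.04 that became 0.13 when scaled to the RPKM totals.

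In the deposited pathway annotation, 10 of the 122 outer peaks with a KEGG pathway carried FoxO signalling (8.20%), against 1.99% of all peaks and 2.50% of inner peaks with a pathway. Among them are the peaks of Foxo3, Stk11, Gadd45b, Ccnd1 and Igf1r. AMPK signalling was carried by 7 (5.74%, against 2.64% of all) and PPAR signalling by 4 (3.28% against 1.25%), namely Plin2, Plin1, Adipoq and Pdpk1. Metabolic pathways were carried by 29 (23.8% against 22.3%), PI3K-Akt signalling by 10 (8.20% against 5.44%) and mTOR signalling by 6 (4.92% against 2.58%). Of the 9 tested FoxO peaks 3 were positive, where 50.5% of all tested peaks were, and 1, that of Foxo3, had an unadjusted p under 0.05. These shares cover only the pathways named here and describe which genes have an outer peak, and no enrichment was tested.

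Secreted proteins held the lowest value of the class. Serpine2, protease nexin 1, an inhibitor of thrombin and plasminogen activators, had 28.1, 15.8 and 29.6 CPM in controls and 6.64, 1.10 and 6.91 CPM with Dyrk1b, from 24, 13 and 22 reads against 5, 1 and 9 (chromosome 1, 79840426 to 79840821). All 3 Dyrk1b libraries were below all controls, and the log2 change was -2.26 ± 0.61 (SE) with an adjusted p of 0.112 by edgeR. Only the controls held enough reads for this peak to be tested, so the lack of overlap is no further support. No peak in the table has fewer than 1 read, so the single read of Dyrk1b 2 may stand for an empty peak. Edn3, endothelin 3, a vasoactive peptide, went the other way with 8.21, 4.86 and 8.07 against 15.9, 18.7 and 21.5 CPM and no overlap (1.41 ± 0.60, adjusted p = 0.284), and its change was 0.75 after loess normalisation. For Edn3 only the Dyrk1b libraries held enough reads for a test, so its lack of overlap is no further support either. Of 17 tested secreted proteins 10 were positive with a median of 0.15, while Gc, the vitamin D-binding protein of plasma, had 0.11 ± 0.27 and Itih1, an inter-alpha-trypsin inhibitor chain, -0.32 ± 0.25.

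Signals of the Wnt pathway had outer peaks at a receptor and at extracellular inhibitors that bind it. Lrp5, a Wnt co-receptor, had 29.3, 35.2 and 63.2 CPM in controls and 73.0, 70.6 and 62.2 CPM with Dyrk1b, where control 3 reached into the Dyrk1b range (0.69 ± 0.27, adjusted p = 0.249). Dkk2, a dickkopf antagonist, had 11.7, 21.9 and 17.5 against 34.5, 37.5 and 25.3 CPM without overlap (0.91 ± 0.39, adjusted p = 0.291). Sost, sclerostin, had 15.2, 12.1 and 40.3 against 38.5, 47.4 and 33.0 CPM, again with control 3 inside the Dyrk1b range (0.82 ± 0.36, adjusted p = 0.300). Sdc4 and Nrp1, receptors of the wider group, were lower at an unadjusted p under 0.05. The log2 change was -0.60 ± 0.26 for Sdc4, the proteoglycan syndecan 4, and -0.55 ± 0.27 for Nrp1, neuropilin 1. The 8 peaks of Wnt, Hedgehog and guidance signalling were 4 positive and 4 negative, with none called.

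Factors of transcription and chromatin were positive in 13 of 19 tested peaks, where 50.5% of all tested peaks were positive. Their median was 0.25 and lay between 0.20 and 0.42 under the other scalings. The 0.42 came from the RPKM totals, under which the median of all tested peaks was 0.17. From the lowest to the highest band of level, 66.7%, 53.1% and 35.2% of all tested peaks were positive. The group was not compared with peaks of its own level. Dnmt3c, a DNA methyltransferase of male germ cells, had 11.7, 8.50 and 4.03 CPM in controls and 35.8, 18.7 and 15.4 CPM with Dyrk1b, without overlap (1.46 ± 0.56, adjusted p = 0.249, and a change of 0.91 after loess normalisation). Only the Dyrk1b libraries held enough reads for this peak to be tested, so its lack of overlap is no further support. Cecr2, a bromodomain protein of chromatin remodelling complexes, had 22.3, 20.7 and 18.8 against 61.0, 35.3 and 23.8 CPM, with most of the difference in Dyrk1b 1 (0.91 ± 0.36, adjusted p = 0.260, and a change of 0.50 without that library). Maml2, a Notch coactivator, had 25.8, 17.0 and 30.9 against 41.1, 38.6 and 42.2 CPM without overlap (0.73 ± 0.33, adjusted p = 0.308). Hivep2, a zinc finger factor, was lower, with 103, 135 and 99.5 against 59.7, 93.7 and 69.9 CPM and no overlap (-0.59 ± 0.22, adjusted p = 0.235). Foxa2, a pioneer factor of liver identity, had 52.8, 43.7 and 29.6 against 58.4, 41.9 and 62.2 CPM and overlapped (0.36 ± 0.27, and 0.17 without control 3).

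**Figure D4:**
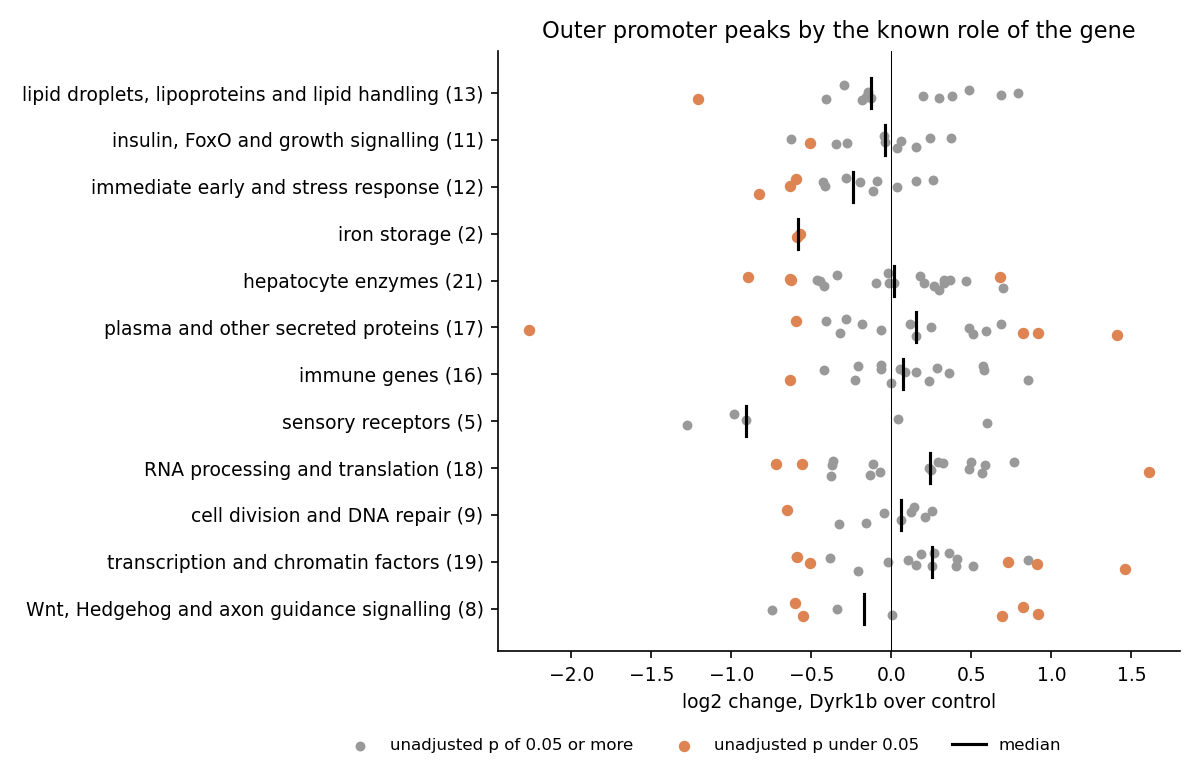
The log2 change of Dyrk1b over control for the tested outer promoter peaks of each role group (their number in brackets), with orange points at an unadjusted p under 0.05 and a black bar at the group median. Immediate early and stress genes have a median of -0.24 with 9 of 12 negative, and transcription and chromatin factors have a median of 0.25 with 13 of 19 positive. Among all tested peaks 50.5% were positive, and no group was compared with peaks of its own level.

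The remaining groups held no called peak. Proteins of RNA processing and translation had 10 of 18 positive with a median of 0.24. At an unadjusted p under 0.05, Snupn, described further on, was higher (1.61). Tcea3, an elongation factor, and Hnrnpul1, an RNA-binding protein, were lower at that threshold (-0.72 ± 0.32 and -0.56 ± 0.26). Cell division and repair genes had 5 of 9 positive, and 7 of 9 when scaled to the RPKM totals. Cntrl, a centriole protein, was the 1 with an unadjusted p under 0.05 (-0.65 ± 0.29), and Ccnd1, cyclin D1, stood at -0.05 ± 0.31 and became 0.13 when scaled to the RPKM totals. Immune genes had 9 of 16 positive with a median of 0.07 (12 of 16 and 0.23 when scaled to the RPKM totals), and the 2 outer peaks of Gcsam had -0.42 and -0.21 while those of Cd300lg had 0.36 and 0.05. Of 7 odorant, pheromone and related sensory receptors 5 were tested, and 2 were positive. Of 22 gene lists of pathways, families and cell types 13 had an outer peak, with 0 called, and the lists of the Hippo pathway and DYRK kinases and of inflammation and acute phase genes had none.

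Several of the peaks with the lowest p belong to genes outside these groups. Msln, mesothelin, a surface glycoprotein of mesothelial cells, had 34.0, 24.3 and 43.0 CPM in controls and 71.7, 55.1 and 69.9 CPM with Dyrk1b, without overlap (0.96 ± 0.28, adjusted p = 0.137 by edgeR). Gpr151, an orphan receptor of neurons, had 5.86, 6.07 and 20.2 against 31.8, 35.3 and 21.5 CPM, where control 3 almost reached Dyrk1b 3 (1.47 ± 0.48, adjusted p = 0.187, and a change of 2.27 without control 3). Among its controls only control 3 held enough reads for a test, so the lack of overlap is no further support. Pnmt, the enzyme that makes adrenaline, had 22.3, 26.7 and 24.2 against 43.8, 57.3 and 33.0 CPM (0.86 ± 0.33, adjusted p = 0.242), and neither group overlapped the other. Spns3, a member of a sphingolipid transporter family, had 1.44 ± 0.54 and Zdhhc14, a palmitoyltransferase, 0.74 ± 0.30, both without overlap, and Spns3 had 0.88 after loess normalisation. Among lower peaks, Mtfp1 had 93.8, 83.8 and 87.4 against 62.4, 51.8 and 56.1 CPM, with little spread in either group (-0.64 ± 0.23, adjusted p = 0.221). Atp10b, a phospholipid flippase, had -0.78 ± 0.31 and Slc15a5, a solute carrier, -0.77 ± 0.32. Fbxo31 and Rnf125, both part of ubiquitin ligases, had -0.58 ± 0.26 and -0.54 ± 0.28, and Usp3, a deubiquitinase, 0.19 ± 0.32, which ran from 0.03 to 0.40 without single libraries.

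For 66 genes the outer peak could be compared with an inner peak of the same gene within each library. The outer minus inner difference in log2 CPM (prior count 2) was tested with limma over these genes. It was higher with Dyrk1b in 44 genes and lower in 22, with a median change of 0.25, and the outer peaks themselves had a median change of 0.01 against -0.17 for the inner ones. The inner peak taken was that with the highest mean, and the median outer minus inner difference in controls was -0.39. Strongly open peaks were more often lower among all tested peaks, as described above. The part of level in this comparison was not tested, and loess normalisation was not run for it. The test called 1 gene, Hcfc1 (1.52% of the 66), and at an unadjusted p under 0.05 there were 9 higher (13.6%) and 2 lower (3.03%). In 65 of the 66 genes both distances were taken to the same start, and the exception was Sys1, where another start had been used.

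Hcfc1 encodes a host cell factor that bridges transcription factors and histone-modifying enzymes. Its outer peak (chromosome X, 73011103 to 73011525) had 35.2, 31.6 and 25.5 CPM in controls and 39.8, 60.6 and 24.6 CPM with Dyrk1b, while the inner peak (73010565 to 73011012) had 56.3, 38.9 and 47.1 against 14.6, 27.6 and 15.4 CPM. The outer peak overlapped between the groups, and the inner one was lower in every Dyrk1b library. The 2 peaks lie 91 bases apart, and the inner one is itself 602 to 1049 bases upstream. The outer minus inner difference was -0.65, -0.28 and -0.83 in controls and 1.32, 1.08 and 0.61 with Dyrk1b, a change of 1.59 ± 0.37 (SE) with an adjusted p of 0.0331 by limma. The call was lost without control 1, 2 or 3 (adjusted p of 0.186, 0.0699 and 0.0925), without Dyrk1b 1 or 2 (0.195 and 0.0754) and with the replicate block (0.120).

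Snupn encodes snurportin 1, which carries small nuclear ribonucleoproteins into the nucleus. Its outer peak (chromosome 9, 56856938 to 56857257) had 8.21, 19.4 and 9.41 CPM in controls and 50.4, 47.4 and 19.2 CPM with Dyrk1b. Dyrk1b 1 and 2 were far above the controls, and Dyrk1b 3 fell just below control 2. Among the controls only control 2 held enough reads in this outer peak for a test. The log2 change of 1.61 ± 0.42 was the highest of the class (adjusted p = 0.108 by edgeR), and in the authors' deposited table this peak has the lowest FDR of the outer peaks (0.278). The inner peak over the start site had 43.4, 42.5 and 37.6 against 27.9, 34.2 and 45.3 CPM and overlapped. The outer minus inner change was 1.68 ± 0.48 (adjusted p = 0.0797 by limma), and over all alternatives it ran from 1.30 to 2.26 with adjusted p from 0.00549 (without Dyrk1b 3) to 0.265 (without control 1).

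The next genes did not pass. Wnk1, a kinase of ion transport, had a change of 1.14 ± 0.38 (adjusted p = 0.173 by limma), where the inner peak 172 bases away was lower in every Dyrk1b library (31.7, 32.8 and 45.7 against 21.2, 21.0 and 13.1 CPM). Tmem98, a membrane protein, went the other way at -0.95 ± 0.37 (adjusted p = 0.265), with an inner peak at 23.4, 34.0 and 25.5 CPM in controls and 54.4, 60.6 and 37.6 CPM with Dyrk1b and no overlap there. Its outer peak had 28.1, 44.9 and 33.6 against 27.9, 36.4 and 31.5 CPM. Them6, a thioesterase family member, and Sys1, a Golgi protein, had changes of -0.79 ± 0.40 and -0.69 ± 0.36.

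**Figure D5:**
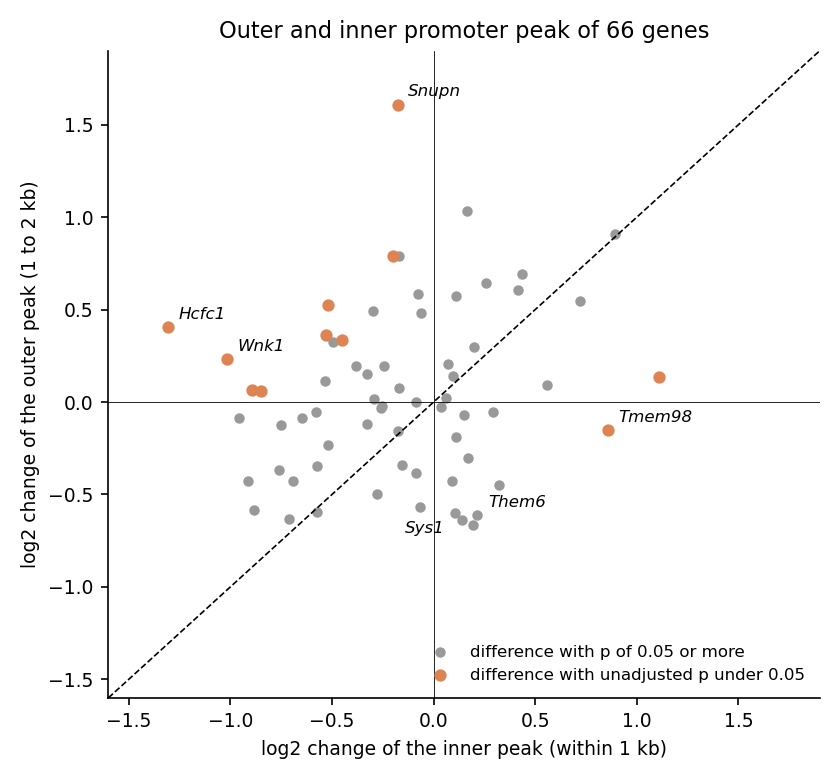
The log2 change (Dyrk1b over control) of the outer promoter peak against that of the inner peak for 66 genes, with a dashed line of equal change and orange points where the difference had an unadjusted p under 0.05. Hcfc1 and Snupn lie above the line and Tmem98 below it, and 44 of 66 genes have an outer minus inner change above 0.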

How the data were processed

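ATAC-seq was analysed in 6 mouse liver libraries, 3 with an adenovirus for EGFP and 3 with one for Dyrk1b. Per the file headers, the authors deposited whole read counts per merged peak, RPKM values made from them, a log2 ratio of mean RPKM, a p-value and an FDR, with an annotation by gene, class and distance. The submitters' processing notes name Bowtie2, DiffBind, ChIPseeker and the build mm10, with no versions. The sources used here do not give the peak caller, duplicate handling, read shift or the test behind the deposited p-values. Peak positions keep the table's own unnamed build, since its gene positions differ from GRCm38. Library totals behind the RPKM values were 38.05 M to 48.3 M reads, and the deposited counts are 1 or more in every library.

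Counts of all 22412 peaks were fitted with edgeR 4.0.16 (TMM, filterByExpr, quasi-likelihood test, no covariate, R 4.3.3), which left 22051 peaks and removed 361. Benjamini-Hochberg adjustment ran over all tested peaks, with a threshold of 0.05, and the rows of the outer promoter peaks were then read out. Standard errors are the log2 change divided by the root of its F value. Outer and inner peaks of a gene were compared with limma 3.58.1, taking the inner peak with the highest mean. Other settings were DESeq2 1.42.0, other scalings, no filter, a replicate block, loess normalisation and leaving out each library. The fits were tested on simulated counts. Same-numbered libraries did not deviate together across peaks (correlations of -0.00979, -0.0144 and 0.0073). The counts thus gave no sign of a pairing by number, and the labels do not state whether samples were prepared in pairs.

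Named were, for each direction, the 8 peaks of lowest p among those without overlap of the groups, predicted genes left out, up to 3 of each of 22 gene lists, the 4 with the highest CPM per kb and 3 in each direction of the outer against inner comparison. Gm10718, the peak on chromosome 13, the edge peaks and other group members were picked with their values in view. The members and lists were chosen with earlier results of these data known.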

Additional observations from a re-analysis of the deposited data

How the results depend on the processing

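The count of called outer peaks was 0 under every setting run except DESeq2, which called 1. At an unadjusted p under 0.05 the count was 27 when scaled to the RPKM totals and 37 to 55 when a library was left out, and the same scaling gave a median log2 change of 0.23. With library size only the median was 0.0961, and without single libraries it was 0.0047 to 0.0854. The numbers of called genes in the outer against inner comparison were 0 with the replicate block and 0 to 2 without single libraries. With the replicate block, which rests on a pairing that the labels do not state, the outer peaks had 0 calls, 51 at an unadjusted p under 0.05 and a median of 0.07. Among named genes with small changes the sign turned for Ces2a (0.0405), Nr4a3 (0.0507), Arid2 (0.0047) and Zfp84 (0.0541) after loess normalisation, for Nr4a3 (0.10), Ccnd1 (0.13), Ier2 (0.0673), Zfp84 (0.11) and Tmem98 (0.0402) when scaled to the RPKM totals, and for Zfp84 with library size only (0.0079) and with the replicate block (0.14). Without single libraries the log2 changes ranged from -0.33 to 0.0402 for Nr4a3, -0.12 to 0.0824 for Ccnd1, -0.26 to 0.0194 for Ier2, -0.34 to 0.68 for Zfp84, -0.0292 to 0.45 for Wnk1 and -0.30 to 0.0559 for Tmem98, and the cause was not tested. The difference in the share of reads (0.0168 percentage points) and the outer minus inner level per length (-0.08) had the same sign under every setting run. Without single libraries they ran from 0.00396 (without control 2) to 0.0418 (without control 1) and from -0.11 (without Dyrk1b 1) to -0.0481 (without control 3). With the peak of the predicted gene Gm10800 left out of all peaks, the difference in share was 0.0251 percentage points. The exact permutation test then gave p = 0.2, against p = 0.6 with that peak. Of 47 named peaks the log2 change moved by over 1.5 times in 22 when some library was left out, in 14 after loess normalisation and in 16 when scaled to the RPKM totals. A split of the class at 2 kb was not run, since all members lie within 2 kb. The median outer peak held 24 to 42.5 reads per library, against 26 to 47 for all peaks, and the common biological coefficient of variation was 19.9%.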
